A study of Rattus norvegicus with 9 samples.

Results

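Translation initiation factors were followed in rat blood as the set of genes whose array symbol begins with Eif followed by a number from 1 to 6, leaving out the kinases named Eif2ak. A gene was kept where at least 1 transcript cluster, the probe group that reads a transcript on the array, carried its symbol alone, and the brightest such cluster over all 9 arrays was used. In all, 41 of the 18166 genes tested were members, read by 43 clusters. Members were chosen by name, while the cluster of a gene with several was chosen by mean signal, which among the members concerned Eif4g1 alone, and all 41 entered the tests because no filter on low signal was applied.

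Initiation is the step at which a ribosome is loaded on an mRNA. The factor eIF2 brings the initiator tRNA to the small ribosomal subunit and is recharged with GTP by eIF2B, while eIF1, eIF1A and the large eIF3 complex keep that subunit open and ready for mRNA. The cap of the mRNA is bound by eIF4E, which is held to the scaffold eIF4G and the helicase eIF4A, and eIF4E binding proteins block that contact. After the start codon is found, eIF5B helps the large subunit to join. The factors act in every cell that makes protein, and in blood the white cells have a nucleus while platelets and mature red cells have none.

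The 9 arrays held blood RNA of male Sprague-Dawley rats in 3 groups of 3 biological replicates, and no transgene or mutation is named. QDBS/MCAO rats, the model of Qi deficiency blood stasis, swam to exhaustion daily for 21 days before middle cerebral artery occlusion (MCAO). YDBS/MCAO rats, the model of Yin deficiency blood stasis, received intramuscular hydrocortisone at 45 mg/kg daily for 13 days and subcutaneous epinephrine at 0.36 mg/kg for 1 day before the same occlusion. Control (Sham) rats had neither pretreatment and underwent the operation without the occluding filament, and blood of all groups was taken from the abdominal aorta after 24 h of reperfusion. Rat ages are not given in the sources used here. Since both models combine a pretreatment with MCAO, these cannot be told apart in a comparison with the control. QDBS and YDBS below stand for the QDBS/MCAO and YDBS/MCAO groups. Each model is a treatment of otherwise unaltered rats, and whole blood mixes many cell types, so that fewer cells of a type and less RNA per cell cannot be told apart.

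Control replicate 2 stood apart from the other control arrays. Over all genes, control arrays correlated at 0.963 to 0.989 with each other, against 0.989 to 0.993 in QDBS and 0.989 to 0.991 in YDBS, and limma gave control replicate 2 an array weight of 0.190 where the other 8 arrays had 0.728 to 2.01. It was the lowest of the control arrays for 31 of 41 initiation factor genes (75.6%), against 40.3% of all genes. Its mean of every cell marker list but that of platelets was the lowest of the control arrays. For T cells, neutrophils and hepatocytes these means were log2 signals of 7.12, 8.52 and 4.85. Its mean over all genes was also the lowest (4.57), while its platelet mean was the highest (10.9). The part of blood cell composition in its low initiation factor signals was not tested. The counts of calls, and the changes of genes shown array by array, are therefore given with and without it.

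A gene was called up- or down-regulated at a false discovery rate (FDR) under 0.05 over all 18166 genes and an absolute log2 fold change (FC) over 1. Against the control, 18 of 41 initiation factor genes (43.9%) were up-regulated in QDBS, where 9.62% of all genes were, and none was down-regulated, where 1.36% of all genes were. In YDBS 16 of 41 (39.0%) were up-regulated and none down-regulated, against 10.4% and 0.919% of all genes. These comparisons share the control arrays, so the model values below are set side by side and not counted as independent. Without control replicate 2 the calls were 16 in QDBS and 13 in YDBS, where 7.66% and 8.53% of all genes were called up-regulated.

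At an FDR under 0.05 with no fold threshold, 26 members were higher and 2 lower in QDBS, with 20.0% and 22.9% of all genes, and 23 were higher and 3 lower in YDBS, with 20.5% and 25.3% of all genes. The lowest QDBS array exceeded the highest control array for 28 members, and for 3 the reverse held, as it did for 22.8% and 31.3% of all genes. In YDBS 27 members were wholly above the control and 4 wholly below, against 23.4% and 33.3% of all genes. The median member log2 FC was 0.75 in QDBS and 0.66 in YDBS, and that of all genes was -0.15 and -0.16. Estimates were above 0 for 36 and 32 of 41 members, where 37.5% and 37.4% of all genes were.

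Scaling moved the level against which all genes were read. Centring each array on its median put the median log2 FC of all genes at 0.01 in QDBS and 0.04 in YDBS, and centring on the 75th percentile put it at -0.38 and -0.37, and such centring cannot move the distance between the member median and that of all genes. This distance was 0.90 in QDBS and 0.82 in YDBS, 0.61 and 0.41 with a further quantile normalization, 0.53 and 0.42 with cyclic loess and 0.76 and 0.53 without control replicate 2. Of all calls, 87.6% were up-regulated in QDBS and 91.9% in YDBS with the deposited scaling, 67.0% and 72.0% with the 75th percentile, and 74.5% and 75.1% with quantile normalization. Between 14 and 20 members in QDBS and between 12 and 18 in YDBS were up-regulated under these scalings and cyclic loess, where 6.90% to 12.1% and 7.79% to 13.5% of all genes were, and none was called down-regulated under any of them.

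**Figure D1:**
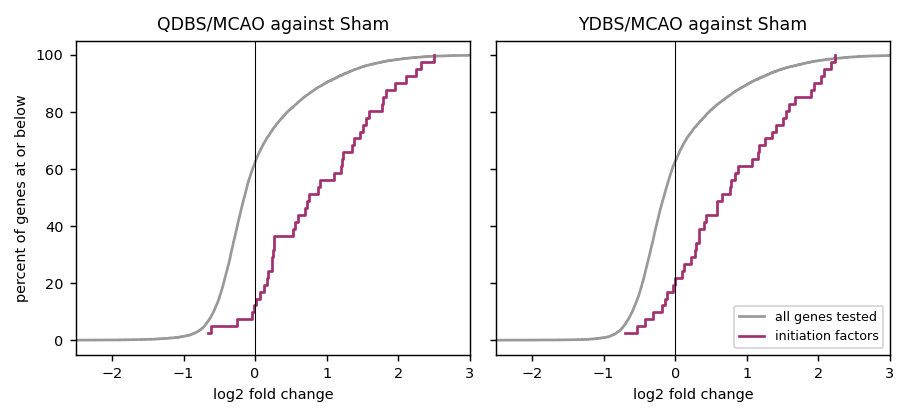
Cumulative share of genes (y axis, percent) at or below each log2 FC against the control (x axis) in QDBS (left) and YDBS (right), for the 41 initiation factor genes and for all 18166 genes tested. The initiation factor curve lies to the right of the curve of all genes, with medians of 0.75 against -0.15 in QDBS and 0.66 against -0.16 in YDBS.

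**Figure D2:**
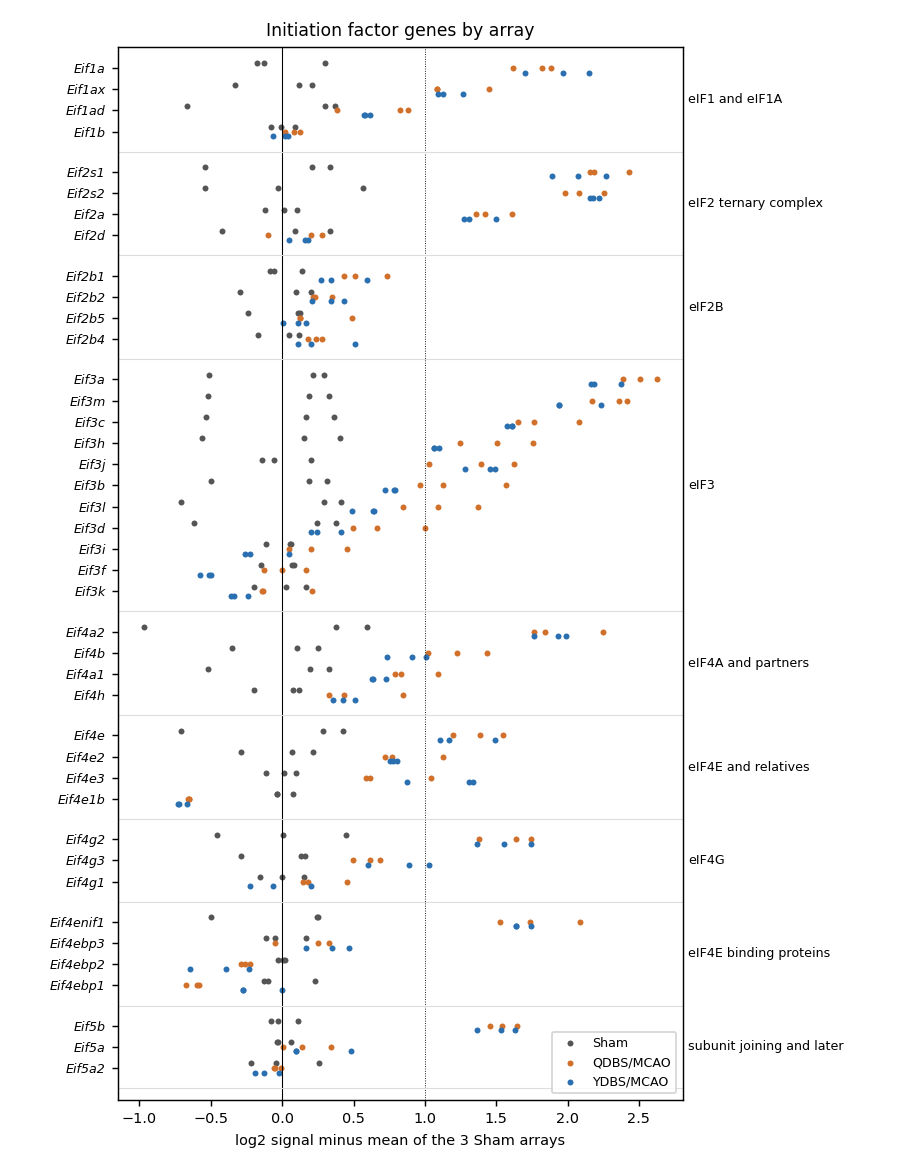
Log2 signal of each of the 41 genes in each of the 9 arrays, as the difference from the mean of the 3 control arrays (x axis), by role (right). Points of QDBS and YDBS lie to the right of the control points for most genes of eIF2 and for Eif3a, Eif3c, Eif3m, Eif4a2, Eif4g2 and Eif5b, and the lowest control point is replicate 2 for 31 of the 41 genes.

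Among the genes of eIF1 and eIF1A, 2 of 4 were up-regulated in each model. Eif1a encodes a form of eIF1A, which keeps the small subunit in a scanning state. Its log2 signal was 4.87, 4.40 and 4.44 in control replicates 1, 2 and 3, 6.39, 6.19 and 6.45 in QDBS and 6.27, 6.54 and 6.72 in YDBS. Every model array lay above every control array by more than 1 log2 unit. The FC was 3.42 in QDBS (log2 FC 1.78, SE 0.16, FDR = 2.19e-05) and 3.84 in YDBS (1.94, SE 0.16, FDR = 1.1e-05), and without control replicate 2 the log2 FC was 1.69 and 1.86.

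The related Eif1ax, the X-linked copy in mammals, had log2 signals of 5.40, 4.86 and 5.31 in the control, 6.28, 6.28 and 6.64 in QDBS and 6.28, 6.32 and 6.46 in YDBS. The groups did not overlap with the control, and control replicate 2 was the lowest array. Its log2 FC was 1.21 (SE 0.16, FDR = 0.000242) and 1.16 (SE 0.16, FDR = 0.000280), close to the fold threshold. It was 1.04 in QDBS and 1.00 in YDBS without control replicate 2, the latter just under the threshold, and 0.98 and 0.96 with the 75th percentile scaling, and both calls were lost under 3 of 4 scalings. Neither Eif1ad, an eIF1A domain gene, with 0.70 and 0.59, nor Eif1b, a relative of eIF1, with 0.07 and 0.00, was called, and the direction of Eif1b turned with the scaling. Without control replicate 2 Eif1ad had 0.36 and 0.26.

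The genes that carry the initiator tRNA held the highest median log2 FC of any role, 1.79 in QDBS and 1.72 in YDBS, with 3 of 4 up-regulated in each. Eif2s1 encodes the alpha subunit of eIF2, whose phosphorylation slows initiation under stress. In the control its log2 signal was 4.74, 3.99 and 4.87, in QDBS 6.72, 6.69 and 6.96, and in YDBS 6.42, 6.61 and 6.80. The models stood clear of the control by more than 1 log2 unit, also of its highest array. Its FC was 4.78 in QDBS (log2 FC 2.26, SE 0.21, FDR = 2.31e-05) and 4.22 in YDBS (2.08, SE 0.21, FDR = 3.22e-05), and 1.98 and 1.81 on the log2 scale without control replicate 2.

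Eif2s2 encodes the beta subunit of the same complex. Its control arrays spread widely, at 5.09, 3.98 and 4.50, while QDBS gave 6.50, 6.60 and 6.78 and YDBS 6.68, 6.70 and 6.74. Even the highest control array was over 1 log2 unit below the lowest model array. The log2 FC was 2.11 (SE 0.22, FDR = 5.02e-05) in QDBS and 2.18 (SE 0.22, FDR = 3.46e-05) in YDBS, and without control replicate 2 it was 1.84 and 1.91.

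Eif2a, which encodes eIF2A, a separate protein that can deliver initiator tRNA by another route, differed from these in a narrow control. It measured 3.96, 4.04 and 3.82 in the control, 5.30, 5.36 and 5.55 in QDBS and 5.44, 5.25 and 5.21 in YDBS. The control SD was 0.11 and control replicate 2 was the highest control array. The change amounted to 1.47 on the log2 scale (SE 0.12, FDR = 1.22e-05) and 1.36 (SE 0.12, FDR = 1.66e-05), or 1.52 and 1.41 without control replicate 2. Eif2d, another carrier of this kind, was not called, with 0.13 in both models, and its direction turned with the scaling.

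None of the 4 genes of eIF2B, the exchange factor that reloads eIF2 with GTP, was called, and their log2 FC lay between 0.23 and 0.56 in QDBS and between 0.09 and 0.40 in YDBS. Only Eif2b1 passed the FDR, at 0.56 (FDR = 0.00738) and 0.40 (FDR = 0.0307), and without control replicate 2 it had 0.53 (FDR = 0.0150) and 0.38 (FDR = 0.0562). Eif2b5, the catalytic subunit and the brightest of the group, had log2 signals of 6.09, 5.74 and 6.11 in the control, 6.11, 6.47 and 6.11 in QDBS and 6.09, 5.99 and 6.15 in YDBS. The groups overlapped. Its 95% confidence interval was -0.07 to 0.57 in QDBS and -0.23 to 0.41 in YDBS, and its direction turned with the scaling. Its log2 FC was 0.13 and -0.03 without control replicate 2.

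Of the 11 measured subunits of eIF3, the largest initiation factor, 7 were up-regulated in QDBS and 5 in YDBS. Their log2 FC ran from -0.02 to 2.51 in QDBS and from -0.53 to 2.24 in YDBS, so that subunits of 1 complex ranged from no call to the largest FC of any member. Eif3a encodes the scaffold subunit that the others assemble on. Its log2 signal was 5.73, 4.93 and 5.65 in the control, 7.94, 7.83 and 8.06 in QDBS and 7.81, 7.62 and 7.6 in YDBS. Every model array exceeded every control array by over 1 log2 unit, and every QDBS array exceeded every YDBS array by a small margin. The FC was 5.69 in QDBS (log2 FC 2.51, SE 0.19, FDR = 6.93e-06) and 4.73 in YDBS (2.24, SE 0.19, FDR = 1.23e-05), with 2.25 and 1.99 on the log2 scale without control replicate 2.

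Eif3m, another subunit of the complex, measured 6.14, 5.29 and 6.0 in the control, 8.17, 7.98 and 8.23 in QDBS and 7.75, 7.75 and 8.04 in YDBS. Its log2 FC was 2.32 (SE 0.20, FDR = 1.49e-05) and 2.04 (SE 0.20, FDR = 2.78e-05). The core subunit Eif3c was at 6.55, 5.85 and 6.74 in the control, at 8.14, 8.46 and 8.03 in QDBS and at 7.99, 7.95 and 7.99 in YDBS. Both genes had no overlap with the control, whose replicate 2 was again the lowest array. For Eif3c the log2 FC was 1.83 (SE 0.21, FDR = 7.63e-05) and 1.60 (SE 0.21, FDR = 0.000172). Without control replicate 2 the log2 FC was 2.06 and 1.78 for Eif3m and 1.57 and 1.33 for Eif3c.

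Eif3j encodes a loosely held subunit that sits in the decoding site. Its log2 signal was 4.75, 4.67 and 5.01 in the control, 6.20, 5.84 and 6.43 in QDBS and 6.09, 6.30 and 6.27 in YDBS. The log2 FC amounted to 1.35 (SE 0.16, FDR = 0.000112) and 1.41 (SE 0.16, FDR = 7.38e-05), or 1.28 and 1.34 without control replicate 2, and the arrays of both models lay above the control. Eif3h, one of the regulatory subunits, read 6.95, 5.98 and 6.70 in the control, 8.30, 8.05 and 7.79 in QDBS and 7.64, 7.61 and 7.61 in YDBS. The YDBS arrays lay closer to the control here than the QDBS arrays did. Its log2 FC was 1.5 in QDBS (SE 0.22, FDR = 0.000413) and 1.08 in YDBS (SE 0.22, FDR = 0.00298), and without control replicate 2 it was 1.22 and 0.80, so that the YDBS call was lost. The YDBS call was also lost under 3 of 4 scalings (0.87, 0.64 and 0.70), and both calls with the methods' t-test (FDR = 0.0515 and 0.0714).

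Other eIF3 subunits, named after their values were seen, were called in QDBS alone or in neither model. Eif3b, a core subunit, had a log2 FC of 1.22 in QDBS (FDR = 0.00125) and 0.76 in YDBS (FDR = 0.0144), and Eif3l had 1.1 (FDR = 0.00630) and 0.59 (FDR = 0.0784). Without control replicate 2 both QDBS values were below the threshold, at 0.97 and 0.75, and both calls were also lost under 3 of 4 scalings and with the methods' t-test (FDR = 0.0680 and 0.120). Eif3d, the subunit that can itself bind a cap, had 0.72 and 0.29, the latter of a sign that turned with the scaling. Without control replicate 2 Eif3d had 0.41 (FDR = 0.0565) and -0.02. Eif3f, Eif3i and Eif3k were at 0.01, 0.24 and -0.02 in QDBS and at -0.53, -0.15 and -0.31 in YDBS. Of these 3, with the deposited scaling only Eif3f in YDBS passed the FDR (0.00556), as a lower value that was not called. Under 3 of 4 other scalings all 3 passed as lower values in YDBS, down to -0.87, -0.60 and -0.71. Eif3k also passed in QDBS under 2 of 4, down to -0.37. The QDBS directions of all 3 and the YDBS direction of Eif3i turned with the scaling. Without control replicate 2 Eif3f had -0.06 and -0.60, Eif3i 0.18 and -0.20, and Eif3k -0.12 and -0.41, the last at FDR = 0.0324.

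**Figure D3:**
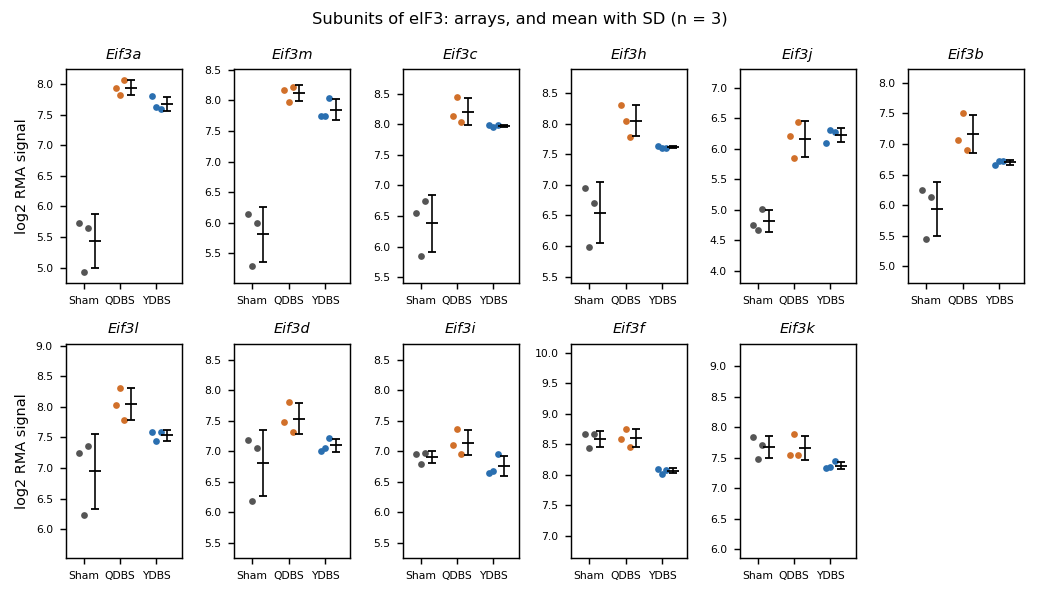
Log2 RMA signal (y axis, of equal span in each panel) of the 11 eIF3 subunits in the 3 control, 3 QDBS and 3 YDBS arrays, ordered by QDBS change, with the group mean and SD beside the points (n = 3). Levels are read within a panel and not between panels. The models stand above the control from Eif3a to Eif3j, while Eif3f, Eif3i and Eif3k of the models do not, and the YDBS arrays of Eif3f, at 8.02 to 8.10, lie below all others.

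Promoter sequence was looked up because subunits of this 1 complex differed so widely. The RefSeq promoter table (GRCr8) held 37 of the 41 members, and the 250 bases before the start given in that table were searched on both strands for 7 motifs, among them CCGGAAG, the core of an ETS factor site, and CACGTG, an E-box, which cannot overlap each other. A gene can have several starts, and for 19 of the 37 members the 250 bases lay partly or wholly inside the annotated span of the gene. CCGGAAG was present in 15 of 37 members (40.5%) and in 10.8% of the 14504 tested genes with a promoter, and CACGTG in 8 (21.6%) and 6.87%. Of the members up-regulated in each model, 4 of 14 held CCGGAAG (28.6%), and of the others 11 of 23 (47.8%). For CACGTG the counts were 1 of 14 and 7 of 23. The GC box GGGCGG, which can share bases with CCGGAAG or its reverse complement, was in 26 members (70.3%, against 45.4% of all genes), 11 of 14 and 15 of 23. GCATGCGC, part of the NRF1 site, was in 5 (13.5%, against 3.39%), 2 of 14 and 3 of 23, and TATAAA, the TATA box, in 2 (5.41%, against 11.3%), 2 of 14 and 0 of 23. Neither AAGATGGC, a YY1 site, nor TGACGTCA, the cyclic AMP response element, was in any member, where 1.79% and 2.23% of all genes held them. The 150 bases nearest the start are shown for the 3 subunits with the largest changes and then for the 3 with the smallest values in QDBS, with CCGGAAG or its reverse complement in capitals. They lie at chr1:269919026-269919175 (minus strand), chr1:190583068-190583217 (minus), chr3:111897194-111897343 (minus), chr1:172368912-172369061 (plus), chr5:147226911-147227060 (minus) and chr1:93397488-93397637 (minus), in the order printed, each 5′ to 3′ along its gene. The start used for Eif3a lies 6760 bases inside the annotated gene, and that for Eif3k 64 bases inside.
Eif3a: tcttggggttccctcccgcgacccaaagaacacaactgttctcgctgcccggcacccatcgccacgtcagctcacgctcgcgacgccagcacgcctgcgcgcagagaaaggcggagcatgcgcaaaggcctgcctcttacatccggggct
Eif3c: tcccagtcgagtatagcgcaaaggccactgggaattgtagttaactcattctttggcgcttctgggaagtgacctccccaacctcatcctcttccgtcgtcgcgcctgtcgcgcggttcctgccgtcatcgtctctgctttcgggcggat
Eif3m: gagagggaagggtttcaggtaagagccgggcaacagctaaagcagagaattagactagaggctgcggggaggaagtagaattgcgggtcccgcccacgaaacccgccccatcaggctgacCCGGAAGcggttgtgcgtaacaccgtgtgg
Eif3f: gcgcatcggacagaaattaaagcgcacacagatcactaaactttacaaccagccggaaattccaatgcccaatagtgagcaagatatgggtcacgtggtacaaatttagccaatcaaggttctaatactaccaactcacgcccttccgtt
Eif3i: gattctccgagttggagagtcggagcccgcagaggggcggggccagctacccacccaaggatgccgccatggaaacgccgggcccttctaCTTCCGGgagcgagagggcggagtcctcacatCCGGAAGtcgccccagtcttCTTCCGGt
Eif3k: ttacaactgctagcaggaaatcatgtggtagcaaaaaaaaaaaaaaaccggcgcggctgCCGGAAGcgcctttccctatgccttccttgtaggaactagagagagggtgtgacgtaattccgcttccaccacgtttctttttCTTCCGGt
These windows held the letters once in Eif3m, 3 times in Eif3i, 2 times in Eif3k and not in Eif3a, Eif3c or Eif3f. The matches are letters in a window, and binding was not measured.

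Among eIF4A and its partners, 2 of 4 genes were up-regulated in QDBS and 1 in YDBS. Eif4a2, one of the RNA helicases that unwind the mRNA leader, had log2 signals of 5.28, 3.72 and 5.06 in the control, 6.53, 6.46 and 6.94 in QDBS and 6.46, 6.62 and 6.68 in YDBS. Control replicate 2 was over 1 log2 unit below the other control arrays, yet all model arrays were above all 3. On the log2 scale the FC was 1.95 (SE 0.33, FDR = 0.000980) and 1.90 (SE 0.33, FDR = 0.00109), and 1.47 and 1.41 without that array. Both calls were lost with the methods' t-test (FDR = 0.0712 and 0.0672). The other helicase gene, Eif4a1, had 0.90 and 0.66 and was not called although its FDR passed in both (0.00447 and 0.0195). Without control replicate 2 Eif4a1 had 0.64 and 0.40. Eif4b, which stimulates the helicase, was called in QDBS at 1.23 (FDR = 0.000300) and not in YDBS at 0.88, or at 1.05 and 0.71 without control replicate 2, and the QDBS call was lost with cyclic loess (0.96). Eif4h, of like function, had 0.54 and 0.43 with all arrays. The probes of close copies such as Eif4a1 and Eif4a2, or Eif1a and Eif1ax, may share targets, and this was not tested.

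Of eIF4E and its relatives, 1 of 4 was up-regulated in QDBS and 2 in YDBS. Eif4e, the cap-binding protein itself, read 5.51, 4.37 and 5.36 in the control, 6.46, 6.27 and 6.63 in QDBS and 6.19, 6.57 and 6.25 in YDBS. The models did not overlap with the control, and control replicate 2 was about 1 log2 unit below the other control arrays. Its log2 FC was 1.38 (SE 0.26, FDR = 0.00190) and 1.26 (SE 0.26, FDR = 0.00298). Without control replicate 2 it was 1.02 and 0.90, and the YDBS call was lost, as it was with cyclic loess (0.97), while the methods' t-test lost both (FDR = 0.0762 and 0.0868). Eif4e3, a cap-binding relative, was called in YDBS at 1.17 (FDR = 0.000289) and reached 0.75 in QDBS, or 1.18 and 0.76 without control replicate 2. Its call was lost under 3 of 4 scalings, at 0.97, 0.91 and 0.96. Eif4e2, a relative known to repress translation, had 0.87 and 0.78. Eif4e1b, the relative known from oocytes, was lower at -0.65 (FDR = 0.000616) and -0.71 (FDR = 0.000343), short of the fold threshold, and at -0.67 and -0.72 without control replicate 2.

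In the eIF4G group 1 of 3 genes was called in each model. Eif4g2 encodes a relative of eIF4G that lacks the eIF4E contact and serves cap-independent initiation. Its log2 signal was 7.79, 7.33 and 8.23 in the control, 9.53, 9.16 and 9.42 in QDBS and 9.53, 9.33 and 9.15 in YDBS. The models lay above the control in every array. The log2 FC was 1.59 (SE 0.21, FDR = 0.000200) and 1.55 (SE 0.21, FDR = 0.000214), or 1.36 and 1.33 without control replicate 2. Eif4g3 had 0.60 and 0.84 and passed the FDR alone. Eif4g1, the main scaffold, had log2 signals of 8.0, 7.69 and 7.84 in the control, 7.99, 8.30 and 8.03 in QDBS and 8.05, 7.79 and 7.62 in YDBS. Its groups overlapped, with 0.26 and -0.03, or 0.18 and -0.11 without control replicate 2. The other clusters of Eif4g1 gave 0.49 and -0.05 in QDBS and 0.16 and -0.16 in YDBS, so that its 3 clusters did not share a sign, and that of the cluster used turned with the scaling.

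The proteins that bind eIF4E divided. Eif4enif1, the shuttling protein that carries eIF4E to the nucleus and to sites of mRNA storage, measured 5.36, 4.61 and 5.35 in the control, 6.64, 7.19 and 6.84 in QDBS and 6.85, 6.74 and 6.74 in YDBS. The control and model arrays were apart by over 1 log2 unit. The log2 FC came to 1.78 (SE 0.21, FDR = 8.72e-05) and 1.67 (SE 0.21, FDR = 0.000120), or 1.53 and 1.42 without control replicate 2.

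None of the 3 inhibitory binding proteins, which the kinase mTOR switches off, was called. Eif4ebp1 had log2 signals of 8.18, 8.51 and 8.15 in the control, 7.68, 7.6 and 7.70 in QDBS and 8.01, 8.0 and 8.28 in YDBS. The QDBS arrays were the lowest, and YDBS overlapped with the control. It was lower in QDBS by the FDR (log2 FC -0.62, SE 0.13, FDR = 0.00429), and in YDBS it was at -0.18 (FDR = 0.270). The YDBS value turned with median centring alone (0.02). It passed the FDR as a lower value under the other 3 of 4 scalings (-0.39, -0.55 and -0.54). Without control replicate 2 and with the deposited scaling, Eif4ebp1 was at -0.50 in QDBS and -0.07 in YDBS. Eif4ebp2 was at -0.26 (FDR = 0.110) in QDBS and lower in YDBS at -0.42 (FDR = 0.0183), with the same rounded values without that array. Under 3 of 4 other scalings Eif4ebp2 passed the FDR as a lower value in QDBS too, down to -0.61. Eif4ebp3 was at 0.17 in QDBS, which turned with the scaling, and at 0.33 in YDBS. The YDBS value passed the FDR as a higher value under 3 of 4 other scalings, up to 0.55.

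At the last step, 1 of 3 genes was called in each model. Eif5b encodes the GTPase that joins the large subunit. It was at 4.73, 4.87 and 4.68 in the control, at 6.22, 6.30 and 6.40 in QDBS and at 6.39, 6.29 and 6.12 in YDBS. Control replicate 2 was its highest control array, and the SD within groups was 0.10 in the control and 0.09 in QDBS. The log2 FC was 1.55 (SE 0.12, FDR = 6.95e-06) and 1.51 (SE 0.12, FDR = 7.29e-06), and 1.60 and 1.57 without control replicate 2. Eif5a, which helps ribosomes past difficult peptide bonds, was at 0.16 and 0.23, and its copy Eif5a2 at -0.04 and -0.11. Both of these turned direction with the scaling.

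**Figure D4:**
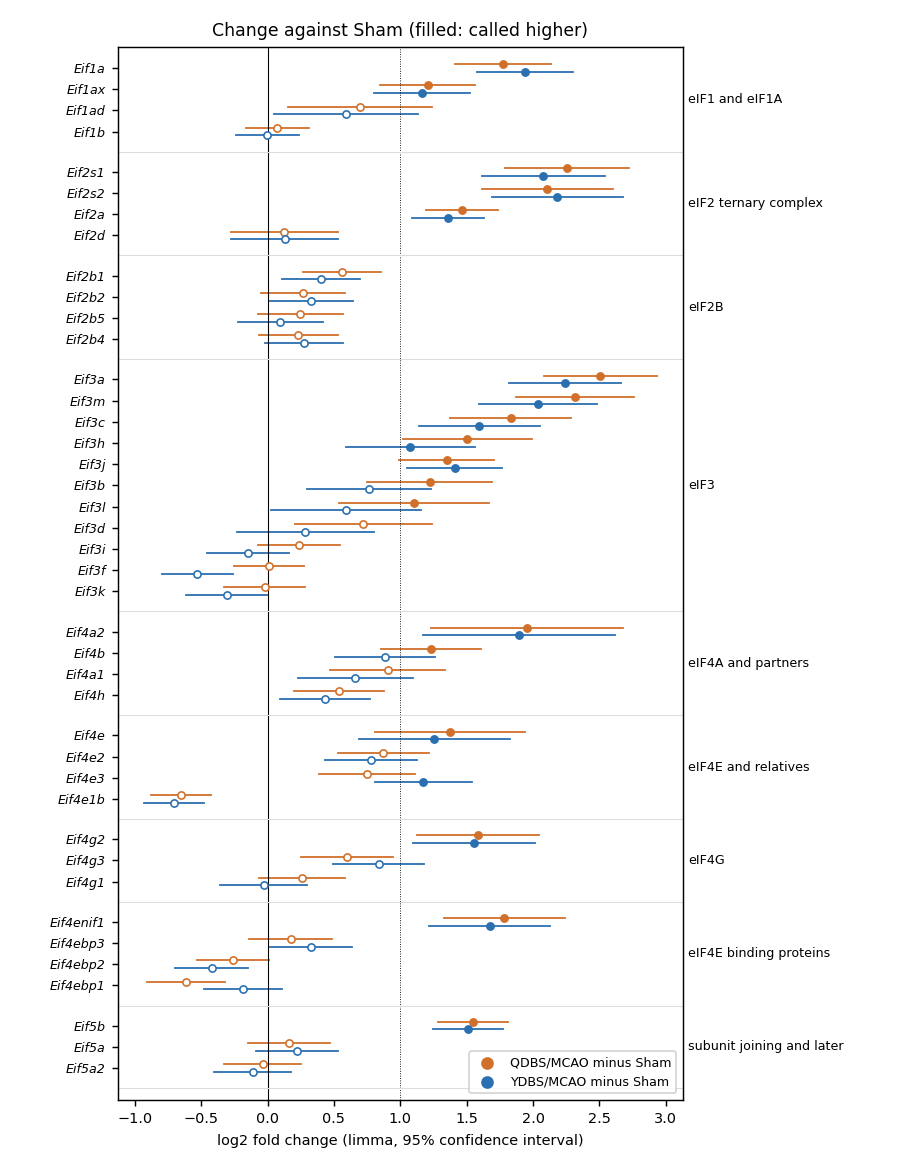
Log2 FC against the control (x axis) of each of the 41 genes in QDBS and YDBS, by role (right), with 95% confidence intervals from limma on 3 arrays a group. Filled points were called up-regulated, 18 in QDBS and 16 in YDBS, and no gene was called down-regulated.

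The direct comparison of QDBS with YDBS asked whether initiation factors separate the models. No member was called, in either direction, by limma, where 0% of all genes were called higher and 0.330% lower in QDBS. By the FDR alone none passed either, against 0.0110% and 0.446% of all genes. At an unadjusted limma p under 0.05, 2 members were higher (4.88%) and 2 lower in QDBS, where 3.97% and 6.56% of all genes were, and the methods' t-test passed none after adjustment. Confidence intervals (95%) of the 41 differences reached from -0.79 at the lowest to 1.08 at the highest.

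Arrays of the models did not overlap for 12 members. For 11 of 41 all QDBS arrays were above all YDBS arrays (26.8%), against 9.79% of all genes, and for 1 they were below (2.44%), against 8.65%. The 11 genes, named after their values were seen, were Eif3a, Eif3b, Eif3c, Eif3d, Eif3f, Eif3h, Eif3k, Eif3l, Eif4a1, Eif4b and Eif4e1b, so that 8 of 11 eIF3 subunits were among them. The median difference of the eIF3 subunits was 0.38, of all 41 members 0.11 and of all genes 0.02. T cell markers had a median difference of 0.62 and B cell markers of 0.66 in the same direction, and natural killer cell markers of 0.09. The median was -1.05 for neutrophil, -0.27 for monocyte, -0.62 for platelet, -0.79 for erythroid and -0.02 for hepatocyte markers. The part of cell composition in these differences was not tested.

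Eif3f had the smallest p of any member. It was at 8.66, 8.44 and 8.67 in the control, at 8.59, 8.76 and 8.46 in QDBS and at 8.10, 8.02 and 8.08 in YDBS. The YDBS arrays were the lowest, and QDBS overlapped with the control. The difference was 0.54 (95% confidence interval 0.27 to 0.81, FDR = 0.0928). It passed the FDR of 0.05 with a further quantile normalization (0.69, FDR = 0.0474), cyclic loess (0.57, FDR = 0.0484), array weights (0.50, FDR = 0.0221) and without control replicate 2 (0.54, FDR = 0.0370), in each case short of the fold threshold.

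Eif4ebp1, whose values are given above, was next, lower in QDBS by -0.43 (95% confidence interval -0.73 to -0.14, FDR = 0.204), with no overlap. Eif3i read 6.96, 6.79 and 6.96 in the control, 7.11, 7.36 and 6.95 in QDBS and 6.64, 6.68 and 6.95 in YDBS. The lowest QDBS array and the highest YDBS array were level. Its difference was 0.38 (95% confidence interval 0.07 to 0.69, FDR = 0.315). Eif4e3 was at -0.43 (FDR = 0.356). None of these differences was called.

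**Figure D5:**
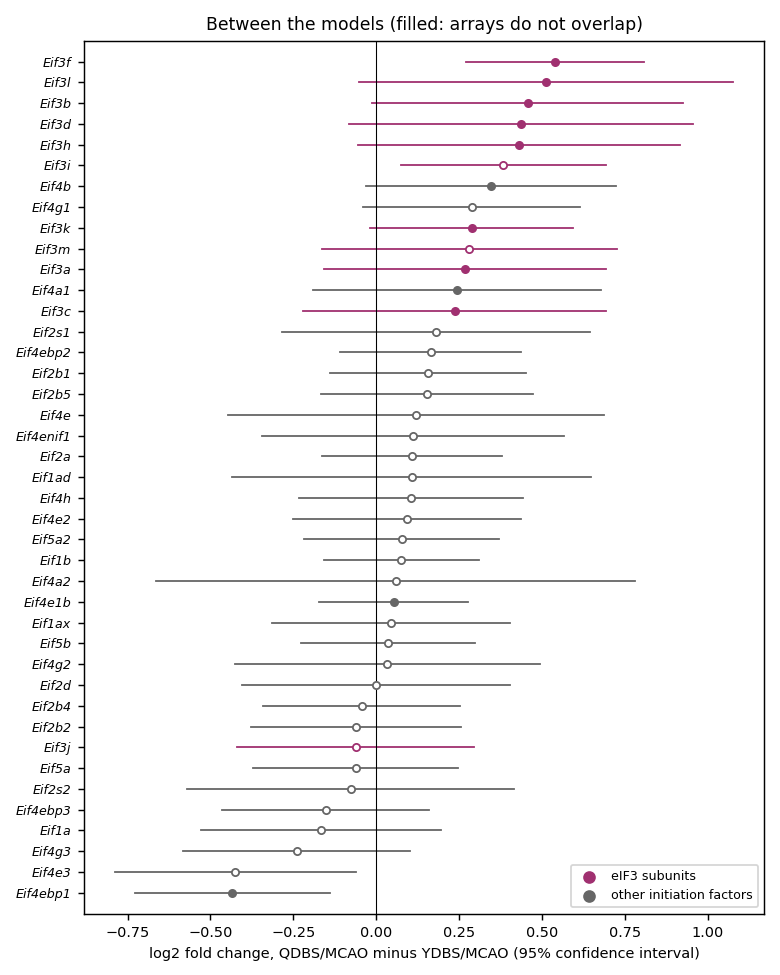
Log2 FC of QDBS minus YDBS (x axis) of the 41 genes with 95% confidence intervals, ordered by value. Filled points mark genes whose 3 QDBS and 3 YDBS arrays do not overlap, 11 above 0 and 1 below, and subunits of eIF3 are coloured apart. No gene was called.

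Other genes of translation were read for context. Of 36 listed, 33 were measured, and 14 were up-regulated in QDBS and 13 in YDBS, where 9.62% and 10.4% of all genes were. None was down-regulated, where 1.36% and 0.919% of all genes were. Their median log2 FC was 0.92 and 0.77, and that of all genes was -0.15 and -0.16. Without control replicate 2 the counts were 12 and 11, where 7.66% and 8.53% of all genes were called up-regulated. The medians were then 0.69 and 0.75, and those of all genes -0.11 and -0.13. The calls lost were those of Eif2ak1 in QDBS, Pabpc4 in both and Ncbp1 in YDBS. Both termination genes were up-regulated, Etf1, which recognises stop codons, at 2.37 (FDR = 2.21e-05) and 2.50 (FDR = 1.36e-05), and its partner Gspt1 at 2.38 (FDR = 0.000348) and 1.92 (FDR = 0.00121). The ribosome recycling factor Abce1 was at 2.34 (FDR = 5.14e-06) and 2.22 (FDR = 6.18e-06), and Pdcd4, an inhibitor of eIF4A, at 2.37 (FDR = 7.25e-05) and 2.35 (FDR = 6.79e-05). Of the cap and poly(A) partners 6 of 7 measured were called in each model, among them Paip2 at 1.32 (FDR = 0.000680) and 1.72 (FDR = 0.000108). Bzw2 had 1.78 (FDR = 1.23e-05) and 1.31 (FDR = 7.35e-05). The changes of Etf1, Gspt1, Abce1, Pdcd4, Paip2 and Bzw2 are given with control replicate 2, which was the lowest control array of each. Gspt1 read 6.50, 4.83 and 6.29 in control replicates 1, 2 and 3. None of the 6 elongation genes was called, with medians of 0.64 and 0.55.

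Of the kinases and phosphatase subunits that control initiation, 3 of 10 measured were called in QDBS and 2 in YDBS, and neither of the stress factors was. Eif2ak1, a kinase of eIF2, was at 1.20 (FDR = 0.00759) and 1.43 (FDR = 0.00274), and Rps6kb1, a kinase under mTOR, at 1.38 (FDR = 0.000101) and 1.26 (FDR = 0.000175). Rptor, the partner that binds eIF4E binding proteins to mTOR, was lower by the FDR without being called, at -0.77 (FDR = 0.00598) and -0.81 (FDR = 0.00438).

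Blood cell markers moved as well. Of all genes, 9.62% were up-regulated and 1.36% down-regulated in QDBS, and 10.4% and 0.919% in YDBS. Markers of natural killer cells were called up-regulated for 3 of 5 measured in each model, those of T cells for 3 of 7 in QDBS and 1 in YDBS, and those of B cells for 2 of 5 and 1. Mean log2 signals of the T cell list ran from 7.12 to 7.71 in the control, 8.45 to 8.58 in QDBS and 7.78 to 7.96 in YDBS. Of the neutrophil list 5 of 7 were up-regulated and 1 down-regulated in YDBS, against none and 2 in QDBS, and the array means were 8.52 to 8.75 in the control, 8.19 to 9.07 in QDBS and 9.15 to 9.99 in YDBS. Platelet markers were down-regulated for 4 of 5 in QDBS and for none in YDBS, with array means of 10.6 to 10.9 in the control, 8.93 to 9.72 and 9.45 to 10.5. Monocyte markers were up-regulated for 2 of 6 in QDBS and 3 in YDBS, and erythroid markers were down-regulated for 2 of 3 measured in QDBS. Hepatocyte markers were down-regulated for 5 of 6 in each model, with array means of 4.85 to 5.47 in the control against 3.22 to 3.35 in the models. The part of these shifts in the initiation factor changes was not tested.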

How the data were processed

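Blood RNA of 9 rats was hybridised to Affymetrix Rat Gene 2.0 ST arrays. The authors deposited log2 signals per transcript cluster, made by Robust Multi-chip Average (RMA, with background correction, quantile normalization and probe summary) in Affymetrix Expression Console 1.1, and these were used without further normalization. The labels name a 3′ labelling kit for these whole-transcript arrays, and no batch is given. Of 30347 clusters, 19086 had a platform annotation, of which 18511 carried 1 symbol and 575 several. A current RefSeq symbol was found for 18394 clusters and used there, whether or not it differed from the platform symbol. The brightest cluster per gene was used where several existed (291 genes), which left 18166 genes. The number of arrays limits the precision.

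One limma fit (version 3.58.1, R 4.3.3) used 3 group means, with 6 residual degrees of freedom and 4.87 prior ones, moderated statistics and Benjamini-Hochberg adjustment over all genes. It stood in for the methods' t-test, which was an alternative, and was tested on simulated data: for QDBS against Sham it called 97% of 100 genes changed by 1.5 and 100% of 100 changed by 2 on the log2 scale, with 2 false calls among the unchanged genes of the 18166. The simulated noise was normal and independent between genes and arrays. It held no array that stood apart, so these rates cannot speak for calls that rest on control replicate 2. Members and gene lists were chosen with earlier results of these data known. Values per array are given by rule for the members called in each model (largest mean change first, up to 3 a role and 5 for eIF3), for the brightest of a role with none called, for the 3 smallest p of the direct test and for the member whose clusters differ. Other members are named outside that rule. The alternatives were other scalings, filters, cluster choice, samples, variance models, array weights, a replicate block and leaving out each array.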

Additional observations from a re-analysis of the deposited data

Results flagged for a closer look

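Clusters that carry several symbols, each an initiation factor and a related copy, were outside the members, and all 3 of them were called up-regulated in both models. Their log2 FC by limma was 1.41 (FDR = 0.00213), 1.71 (FDR = 0.000200) and 2.94 (FDR = 1.97e-06) in QDBS and 1.71 (FDR = 0.000589), 1.53 (FDR = 0.000380) and 2.81 (FDR = 1.93e-06) in YDBS. Which of the copies gave the signal was not tested, and no gene name is given to them. Added as members after seeing the data, they made 21 up-regulated genes in QDBS and 19 in YDBS.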

How the results depend on the processing

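Members called up-regulated numbered 14 to 20 in QDBS and 12 to 18 in YDBS under other scalings, 16 and 15 with array weights and 13 and 13 with the methods' t-test. They numbered 16 to 19 and 13 to 17 as each array was left out, the lowest without control replicate 2. The calls lost under these settings were of Eif1ax, Eif3b, Eif3h, Eif3l, Eif4a2, Eif4b, Eif4e and Eif4e3. No member was called down-regulated under any of them. With no fold threshold, 2 were lower in QDBS and 3 in YDBS with the deposited scaling. By the FDR alone under other scalings, 2 to 4 were lower and 21 to 26 higher in QDBS. In YDBS 1 to 9 were lower and 18 to 29 higher. Without control replicate 2 these counts were 2 lower and 24 higher in QDBS, and 4 lower and 21 higher in YDBS. The median log2 FC in YDBS, 0.66, was 0.32 with a further quantile normalization, 0.40 with cyclic loess and from 0.40 to 0.81 as each array was left out, the lowest without control replicate 2, and the cause was not tested. The tally below covers the members shown array by array and Eif3b, Eif3l, Eif4b, Eif4e1b, Eif4e3 and Eif4ebp2. Outside it, with median centring Eif4a1 and Eif4e2 gained a call in QDBS and Eif4g3 in YDBS. Against the control, Eif1b, Eif2b2, Eif2d, Eif3d, Eif3k, Eif4ebp3, Eif5a and Eif5a2 turned direction with the scaling. Some of the tallied settings leave a log2 FC as it was and can move only its FDR. Among them are the filter on dim genes, the other variance model, the replicate block and leaving out an array of a group not compared. Values under such settings could not change direction, so the count of kept values was partly fixed in advance. Of the tallied values, 1178 kept their direction and side of the threshold, 37 lost the call, 2 gained it and 22, none of a called value, changed sign. In QDBS these were Eif2b5 (-0.19), Eif3f (-0.18), Eif3i (-0.17) and Eif4g1 (-0.027) with quantile normalization, the same genes with cyclic loess (-0.082, -0.29, -0.14 and -0.072), and Eif3f with the 75th percentile (-0.21), array weights (-0.095) and without QDBS replicate 2 (-0.066) or control replicate 2 (-0.065), where leaving out each array gave -0.066 to 0.0807. In YDBS they were Eif2b5 with the 75th percentile (-0.11), quantile normalization (-0.34), cyclic loess (-0.22), array weights (-0.0048) and without control replicate 2 (-0.025, in a range of -0.025 to 0.159), Eif3i (0.057), Eif4ebp1 (0.019) and Eif4g1 (0.17) with median centring, and Eif4g1 without control replicate 1 (0.050) or YDBS replicate 3 (0.072, in a range of -0.14 to 0.072). The cause was not tested.

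The replicate block left 18 and 16 members called and changed no call. Replicate numbers did not pair the arrays: deviations from group means correlated at -0.17 to 0.20 between arrays of the same number (n = 9 pairs) and at -0.13 to 0.22 between arrays of different numbers (n = 18 pairs). Limits are the 3 arrays a group, a control array that stood apart, and the mixed cells of whole blood.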
